A study of Mus musculus with 4 samples.

Results

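The mitochondrial carriers of the Slc25 family were followed in RNA from spinal cord motor neurons as the 45 genes whose symbol is Slc25a with a number, or Ucp1, Ucp2 or Ucp3, of 27189 genes listed for each library. The family was chosen by symbol alone, so that carrier-like genes listed under other symbols are outside it. Each symbol had 1 row. Motor neuron cell bodies of the ventral horn were laser captured from 4 transgenic mice at 3 months of age on a C57BL/6J x SJL/J background, and RNA from 3000 to 4000 cell bodies of each animal gave 1 library. The 2 wild-type libraries came from strain 592, which carries human SOD1 fused to yellow fluorescent protein (YFP), and the 2 G85R libraries from strain 737, which carries the same fusion with the G85R mutation that causes amyotrophic lateral sclerosis. Both transgenes are driven from the human SOD1 genomic fragment and both groups express a YFP fusion, so that neither is nontransgenic. Each genotype is a single transgenic strain, and strain 592 carries fewer copies of its transgene, so that mutation, copy number and strain cannot be told apart. Mice of strain 737 become paralyzed later than the age sampled, and the capture avoided neurons in which the mutant fusion had formed large aggregates.

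Mitochondrial carriers are proteins of the inner mitochondrial membrane that exchange nucleotides, phosphate, carboxylates, amino acids and cofactors between cytosol and matrix. Each is built of repeats of a pair of membrane helices, and each repeat bears a signature in which a proline is followed by an acidic and then a basic residue. In neurons the ADP/ATP carriers export the ATP made by oxidative phosphorylation, and the aspartate/glutamate carrier aralar is part of the shuttle that brings reducing equivalents from glycolysis into mitochondria. The uncoupling proteins are a branch of the same family.

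The signature was looked for in the coding sequence of the longest coding transcript of each gene in GENCODE, on the mouse assembly NCBIM37 (mm9). It was taken as a proline codon, any codon, an aspartate or glutamate codon, any pair of codons, and a lysine or arginine codon, in frame. Of the 45 members, 44 held at least 1 match, 39 at least 2 and 28 at least 3. The same numbers of matches were found in 25.4%, 6.64% and 2.1% of 22547 other coding genes. Only the sequences of the members had to start with ATG and hold whole codons, so that some of the others may be read out of frame. The member without a match was Slc25a46, a carrier-like protein of the outer mitochondrial membrane. The first match of the 6 members with the highest RNA levels is given here, with the proline, acidic and basic codons in capitals.
Slc25a4: gtcgccCCGatcGAGagggtcAAActgctg
Slc25a3: ttggttCCTctaGATctcattAAAtgcaga
Slc25a1: accttcCCGaccGAAtacgtgAAGacgcag
Slc25a25: actgccCCCctgGACagactgAAGgtgctc
Slc25a12: gtgtacCCCataGACctggtgAAGacccgg
Slc25a11: gtgcagCCCctgGACctggtgAAGaaccgg
Each stretch lies within 1 coding exon on the minus strand of NCBIM37, at chr8:47296172-47296201 for Slc25a4, chr10:90584958-90584987 for Slc25a3, chr16:17927684-17927713 for Slc25a1, chr2:32274574-32274603 for Slc25a25, chr2:71134834-71134863 for Slc25a12 and chr11:70459682-70459711 for Slc25a11. The spacing of the 3 marked codons is fixed by the search, while the bases between them differ from gene to gene.

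RNA levels are RPKM, uniquely mapped reads scaled to transcript length and library depth, as deposited. The RPKM of 1 read, the difference between both deposited values of a gene, was 0.0195 to 0.0226 at the median gene of a library. Reads behind a gene were estimated from it and are not exact counts. The defining motor neuron markers were present, with 6 of 6 tested and a summed RPKM of 1370.2 and 1642 in wild-type against 1191 and 1452 in G85R. G85R replicate 1 stood apart in glial RNA. The summed RPKM of 5 astrocyte markers was 110 in this library against 23.5 to 40.1 in the others, with 0 of the 5 called. Gfap alone made up 91.9 of the 110, so that this sum mainly follows 1 gene. The sum of 5 microglia markers was 18.4 against 6.48 to 7.35, with 0 of 2 tested called. Of 5 red blood cell markers, 3 were listed under these symbols, with sums of 1.82 and 2.10 in wild-type against 11.5 and 10.8 in G85R, and 1 of 1 tested was called. The 6 oligodendrocyte markers summed to 786 to 1027, the 4 endothelial markers to 6.75 to 9.06 and the 4 skeletal muscle markers to 0.193 to 0.816, with none of those tested called.

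The carriers spanned a wide range of levels that was kept in the 4 libraries. A mean RPKM of at least 100 was reached by 3 genes, 10 to 100 by 20, and 1 to 10 by 12, while 10 stayed under 1. The family summed to 2814 ± 22.8 RPKM in wild-type compared with 2812 ± 36.2 in G85R (SD, n = 2 libraries each), which was 0.708% to 0.728% of all RPKM of a library. The difference of these sums was smaller than the spread between replicates. Of the sum, 45.2% came from Slc25a4 alone and 69.8% from Slc25a4, Slc25a3 and Slc25a1 together. The highest tested member lay 853-fold above the lowest. Placed in order of mean RPKM, 10 of the 44 pairs of neighbors had values that did not overlap over the 4 libraries, so that the order of the other 34 was not resolved. The median member among the 35 with a mean RPKM of at least 1 had 18.3, compared with 10.1 for all 11530 genes at this level.

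**Figure D1:**
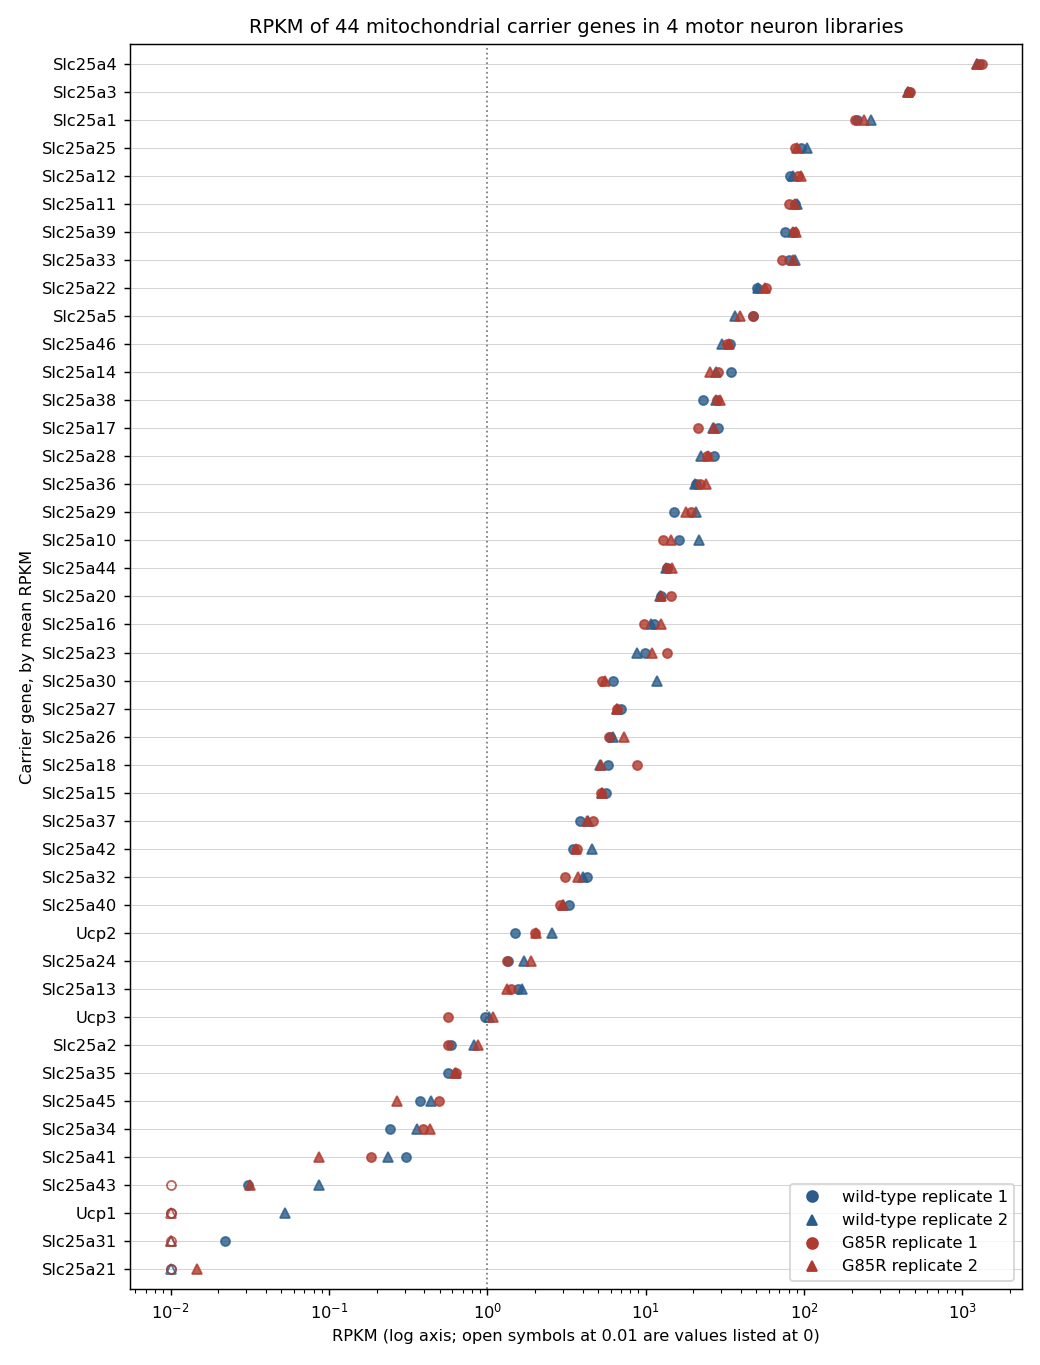
RPKM of 44 carrier genes on a log axis, ordered by mean, with 1 symbol for each library (blue wild-type, red G85R; circles replicate 1, triangles replicate 2). Slc25a4, Slc25a3 and Slc25a1 lie above 100 in every library, the 10 genes at the bottom have a mean under 1 (dotted line), and open symbols mark values listed at 0.

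Genotypes were compared with limma, a linear model of each gene whose variance is moderated by that of the others, on log2(RPKM + 0.1) for the 11530 genes whose mean RPKM was 1 or more. The added 0.1 makes the fold changes of genes with low RPKM too small. SE is the standard error of a log2 fold change from this fit. None of the 35 tested carriers was called, with 0 at an adjusted p under 0.05 (limma, Benjamini-Hochberg adjustment over all tested genes), where 0.642% of all tested genes were called, 0.269% higher and 0.373% lower in G85R. At an unadjusted p under 0.05 there were 3 carriers, 1 higher and 2 lower in G85R, among them Slc25a23 and Slc25a10, or 8.6% of the family, beside 11.0% of all tested genes, 4.66% higher and 6.37% lower. In the log-linear likelihood ratio test (LRT) named by the study, 0 of the 45 carriers had a BHP, the adjusted p of that test, under 0.05 and 0 had a raw p under 0.05, where 0.228% and 1.29% of all genes did. That test takes rounded RPKM, and 77.8% of the carriers had a mean RPKM of at least 1, beside 42.4% of all genes. These 2 shares are therefore not those of genes at a like level. The mean on the log2 scale, to which directions refer from here on, was higher in G85R for 18 and lower for 17 of the 35, and the median log2 fold change was 0.00, compared with -0.02 for all tested genes. The genotypes did not overlap for 15 carriers, beside 41.2% of all tested genes, with 7 of the 15 higher in G85R and 8 lower, where the shares of all tested genes were 17.3% and 23.9%. In the same model with replicate number as a block, a number that the labels do not tie to a shared litter or day, 2 carriers were called, among them Slc25a10, which was lower, where 4.57% of all tested genes were called. The size of the log2 fold change stayed under 0.2 for 28 of the 35. Replicates of wild-type were apart by a median log2 difference of 0.13 over the 35 carriers and those of G85R by 0.11, while the median size of the fold change was 0.11. In captured tissue, fewer cells of a type and less RNA in each cell cannot be told apart.

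**Figure D2:**
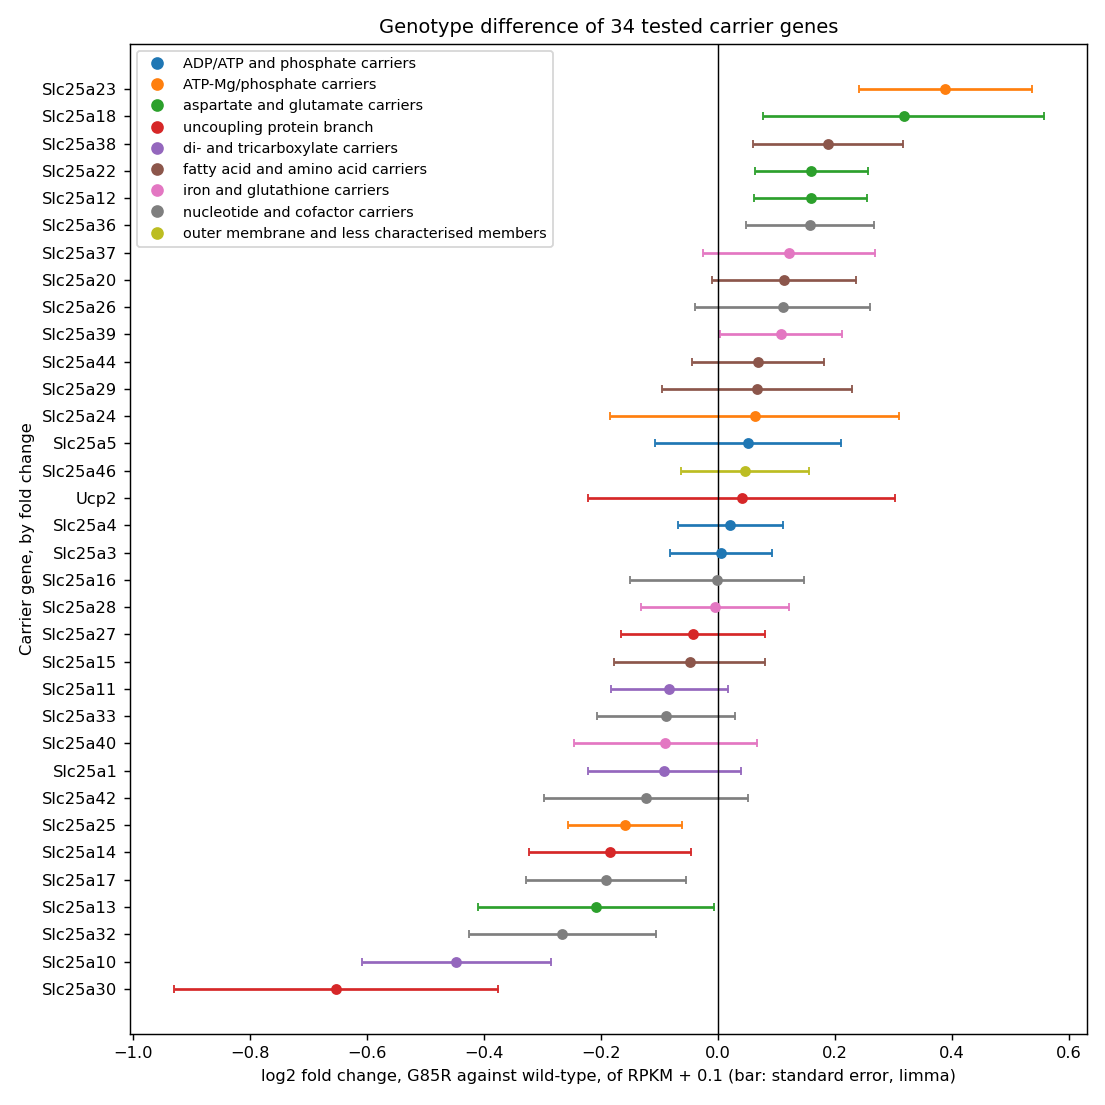
Log2 fold change of G85R against wild-type for 34 tested carriers (horizontal axis, RPKM + 0.1), with bars for the standard error from limma and colors for the substrate groups. Values run from -0.65 for Slc25a30 to 0.39 for Slc25a23, and 28 of the 34 are under 0.2 in size.

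Slc25a4 and Slc25a3, which serve oxidative phosphorylation, had the highest levels in the family, and their genotypes overlapped. Slc25a4 (Entrez Gene 11739), the ADP/ATP carrier of heart, muscle and brain, spans chromosome 8 from 47292151 to 47296638 (minus strand). Its RPKM was 1279.6 and 1246 in wild-type replicates 1 and 2 and 1328 and 1235 in G85R replicates 1 and 2, which put it at the 99.97th percentile of all genes. The values of one genotype lay within the range of the other, with a log2 fold change of 0.02 (SE 0.09, limma adjusted p = 0.968). Slc25a3 (18674), the phosphate carrier, which imports the phosphate for ATP synthesis, had 462 and 454 in wild-type against 464 and 454 in G85R. It varied least in the family on the log2 scale, with 0.03 between its highest and lowest library, and its log2 fold change was 0.00 (SE 0.09, limma adjusted p = 0.992).

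Slc25a5 (11740), the ADP/ATP carrier of proliferating tissues, is on the X chromosome from 34335646 to 34338802 and had 47.4 and 36.6 in wild-type against 47.6 and 39.2 in G85R. Replicate 1 was the higher library in both genotypes, and the log2 fold change was 0.05 (SE 0.16, limma adjusted p = 0.953). The RPKM of Slc25a4 was 27.0 and 34.0 times that of Slc25a5 in wild-type and 27.9 and 31.5 times in G85R, and this ratio did not differ beyond its spread (exact permutation test over libraries, two-sided, p = 1, adjusted p = 1 over 4 pairs of paralogs). With 2 libraries against 2 this test cannot give a p below 0.333. Slc25a31 (73333), the ADP/ATP carrier of testis, was listed at 0.0221 in wild-type replicate 1, about 1 read, and at 0 in the other 3 libraries.

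The coding sequences of Slc25a4 and Slc25a5 are 77.5% identical over 897 aligned bases, and each is 67.0% identical to Slc25a31. The stretch that encodes the run of arginines and methionines by which ADP/ATP carriers are known shows how they differ, with capitals where a base departs from Slc25a4.
Slc25a4: actgttcgtcgtaggatgatgatgcagtct
Slc25a5: acGgttcgCcgtCgTatgatgatgcagtct
Slc25a31: acAgttAgAAgACgTatgatgatgcagAGt
In NCBIM37 these stretches are at chr8:47293765-47293794 on the minus strand, chrX:34337829-34337858 on the plus strand, and on chromosome 3 from 40526647 to 40528792 on the plus strand, where an intron divides the stretch of Slc25a31. Of 30 bases, 4 differ in Slc25a5 and 9 in Slc25a31.

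Copies elsewhere in the genome bear on some levels, since the RPKM rest on uniquely mapped reads. Every window of 75 bases of a coding sequence was compared with NCBIM37 outside the gene, and counted where another site matched with at most 2 mismatches. In 41 of the 45 members there was no such window. In Slc25a5, 95.1% of 823 windows matched elsewhere, at 9 sites, 6 of them at annotated pseudogenes. In Slc25a36, a carrier of pyrimidine nucleotides, the share was 76.5% with 1 site, the pseudogene Gm13217 on chromosome 2. In Slc25a40 it was 46.8% with 1 site, and in Slc25a3 10.9%, at the pseudogene Gm13904 on chromosome 2. The RPKM of Slc25a5, Slc25a36 and Slc25a40, and the ratio of Slc25a4 to Slc25a5, are therefore uncertain as levels. The mismatches that the authors allowed are not given in the sources used here, and the part of these copies in the values was not tested.

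The carriers of aspartate and glutamate differed strongly in level, and 3 of the 4 had genotypes that did not overlap, 2 higher and 1 lower in G85R, where 41.2% of all tested genes did not overlap. None was called. Slc25a12 (78830), the calcium-regulated aspartate/glutamate carrier aralar of neurons and muscle, had 81.6 and 85.3 in wild-type against 91.2 and 95.0 in G85R. Both G85R values lay above both wild-type values, with a log2 fold change of 0.16 (SE 0.10, limma adjusted p = 0.629). Its paralog Slc25a13 (50799), the citrin of liver, had 1.55 and 1.66 in wild-type against 1.42 and 1.33 in G85R, a log2 fold change of -0.21 (SE 0.20, limma adjusted p = 0.798). Slc25a12 thus exceeded Slc25a13 by 52.6 and 51.4 times in wild-type and by 64.3 and 71.2 times in G85R. Both G85R values were above wild-type for Slc25a12 and below it for Slc25a13, so that this ratio could not overlap between the genotypes. It differed by 0.38 on the log2 scale. Its p was thereby fixed at the smallest that the design allows (exact permutation test, two-sided, p = 0.333, adjusted p = 1 over the 4 pairs). The ratio adds nothing to the values of the 2 genes.

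Slc25a22 (68267), a glutamate carrier, had 50.7 and 51.2 in wild-type against 57.4 and 56.4 in G85R. The replicates were close and the genotypes did not overlap, but the log2 fold change of 0.16 (SE 0.10) had a limma adjusted p of 0.627. Slc25a18 (71803), the glutamate carrier known from astrocytes, had 5.78 and 5.13 in wild-type against 8.85 and 5.24 in G85R. The high value was that of G85R replicate 1, and the log2 fold change of 0.32 (SE 0.24, limma adjusted p = 0.711) became -0.06 without this library. In the same library the astrocyte marker Gfap had 91.9, against 11.5 and 17.1 in wild-type and 28.4 in G85R replicate 2, and the glutamate transporters Slc1a2 and Slc1a3 had their highest values, 6.81 and 2.81. The part of astrocyte RNA in the value of Slc25a18 was not tested. The ratio of Slc25a22 to Slc25a18 was 8.77 and 9.97 in wild-type against 6.48 and 10.8 in G85R (exact permutation test, two-sided, p = 1, adjusted p = 1).

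**Figure D3:**
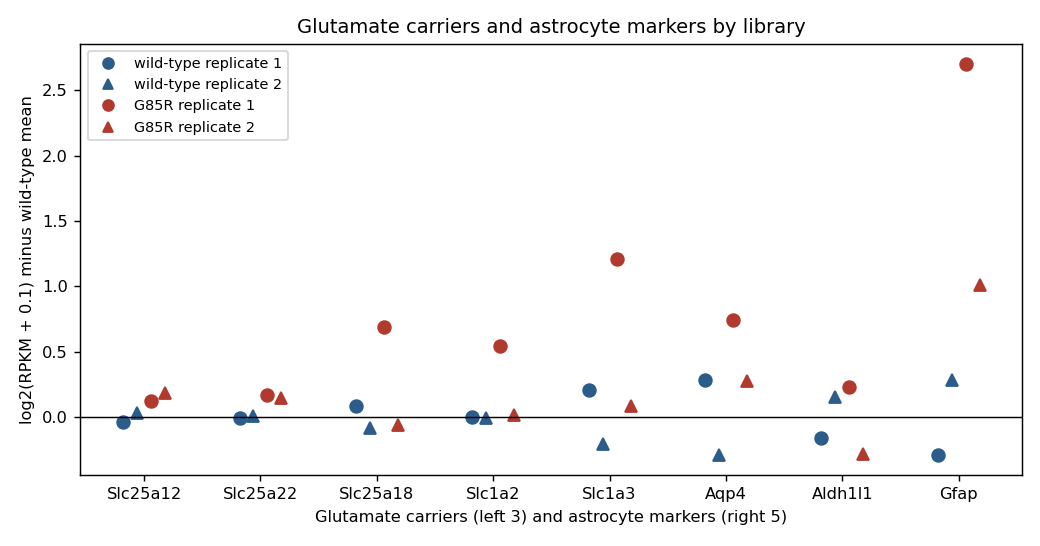
Log2(RPKM + 0.1) of 3 glutamate carriers and 5 astrocyte markers in each library, minus the wild-type mean (blue wild-type, red G85R; circles replicate 1, triangles replicate 2). In G85R replicate 1 Slc25a18 and Gfap are above the other 3 libraries, while Slc25a12 and Slc25a22 are above wild-type in both G85R libraries.

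The carriers that exchange ATP-Mg for phosphate included the highest log2 fold change of the family, which did not pass the adjustment. Slc25a23 (66972), on chromosome 17 from 57183134 to 57199286 (minus strand), had 9.91 and 8.79 in wild-type against 13.7 and 11.0 in G85R. Both G85R values lay above both wild-type values, from an estimated 753 to 1006 reads a library, with a log2 fold change of 0.39 (SE 0.15, limma unadjusted p = 0.0340, adjusted p = 0.411). Without G85R replicate 1, which was the highest library, the log2 fold change was 0.23. Slc25a25 (227731), the member of this group with the highest level, had 96.1 and 104 in wild-type against 88.2 and 90.5 in G85R. Here the genotypes did not overlap in the other direction, with a log2 fold change of -0.16 (SE 0.10, limma adjusted p = 0.630). Slc25a24 had a mean of 1.53 in wild-type and 1.62 in G85R, and its genotypes overlapped. Slc25a41, whose gene lies 2056 bases from that of Slc25a23 on the same strand, was not tested. It was listed at 0.307 and 0.236 in wild-type against 0.183 and 0.0863 in G85R, from 3.12 to 11.5 estimated reads.

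Of the carriers of di- and tricarboxylates, 3 of 4 were tested, and all 3 had a lower mean in G85R, none of them called in the fit without a block. Slc25a10 (27376), the dicarboxylate carrier, which exchanges malate and succinate for phosphate, is on the plus strand of chromosome 11 from 120353154 to 120360501. It had 16.1 and 21.7 in wild-type against 12.9 and 14.5 in G85R. The genotypes did not overlap, and the wild-type replicates differed more from each other than the lower of them did from G85R replicate 2, with a log2 fold change of -0.45 (SE 0.16, limma unadjusted p = 0.0280, adjusted p = 0.383). Without wild-type replicate 2 it was -0.24, and with replicate number as a block its adjusted p was 0.0446 (limma). Slc25a1 (13358), the citrate carrier, which exports citrate for the synthesis of fatty acids, had 215 and 266 in wild-type against 210.2 and 239 in G85R, with genotypes that overlapped and a log2 fold change of -0.09 (SE 0.13, limma adjusted p = 0.884). Slc25a11 (67863), the oxoglutarate carrier, which works with aralar in the malate-aspartate shuttle, had 88.2 and 90.0 in wild-type against 80.2 and 88.1 in G85R. The highest G85R value lay just under the lowest wild-type value, and the log2 fold change was -0.08 (SE 0.10, limma adjusted p = 0.852). Slc25a21, the oxodicarboxylate carrier, was listed at 0.0146 in G85R replicate 2 and at 0 in the other 3 libraries.

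The carriers of nucleotides and cofactors described here were not called. Slc25a33 (70556), a carrier of pyrimidine nucleotides, had 80.1 and 87.5 in wild-type against 72.5 and 85.5 in G85R, with genotypes that overlapped and a log2 fold change of -0.09 (SE 0.12, limma adjusted p = 0.873). Others were Slc25a17 of peroxisomes, Slc25a36, Slc25a16, Slc25a26, which imports S-adenosylmethionine, Slc25a42, a carrier of coenzyme A, and Slc25a32, linked to folate and FAD, with log2 fold changes between -0.27 and 0.16.

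**Figure D4:**
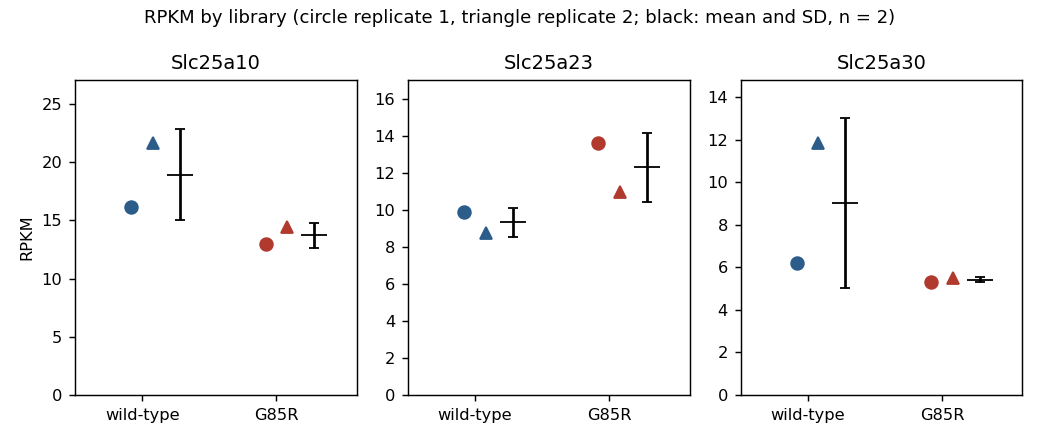
RPKM in each library (vertical axes, from 0) of Slc25a10 and Slc25a23, with an unadjusted p under 0.05 (limma), and of Slc25a30, which had the lowest log2 fold change, with the mean and SD of 2 libraries beside the points. Slc25a10 is lower and Slc25a23 is higher in both G85R libraries, while Slc25a30 is high in wild-type replicate 2 alone.

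In the uncoupling protein branch, the members known from brain had higher levels than the uncoupling proteins of brown fat and muscle. Slc25a14 (20523), also known as brain mitochondrial carrier protein, had 34.4 and 27.7 in wild-type against 28.7 and 25.6 in G85R. The genotypes overlapped, with a log2 fold change of -0.19 (SE 0.14, limma adjusted p = 0.707). Slc25a27 (74011), the uncoupling protein of neurons also named Ucp4, had 6.96 and 6.58 in wild-type against 6.58 and 6.55 in G85R, a log2 fold change of -0.04 (SE 0.12, limma adjusted p = 0.950). Slc25a30 (67554), known from kidney, had 6.20 and 11.9 in wild-type against 5.33 and 5.50 in G85R. Wild-type replicate 2 stood apart, with 535 estimated reads against 207 to 263 in the other libraries. The log2 fold change of -0.65 (SE 0.28, limma adjusted p = 0.455) was the lowest of the family, and it was -0.19 without that library and -1.12 without wild-type replicate 1 (limma adjusted p = 0.0237, with 1 wild-type library left).

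Ucp2 (22228), found in many tissues and in immune cells, had 1.50 and 2.54 in wild-type against 2.00 and 2.03 in G85R. The G85R values lay between those of the wild-type replicates, with a log2 fold change of 0.04 (SE 0.26, limma adjusted p = 0.978). Ucp3, the uncoupling protein of skeletal muscle, is its neighbor on chromosome 7 at 6904 bases, and had 0.964 and 1.03 in wild-type against 0.566 and 1.08 in G85R, from 37 to 78 estimated reads. Its mean lay under the limit for testing. Ucp1, which makes heat in brown fat, was listed at 0.0526 in wild-type replicate 2, about 2 reads, and at 0 in the other 3 libraries.

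Of the iron and glutathione carriers, all 4 were tested, 2 with a higher and 2 with a lower mean in G85R, and their adjusted p from limma were 0.798 to 0.993. Slc25a39 (68066), which imports glutathione into mitochondria, had 76.3 and 85.7 in wild-type against 85.8 and 88.4 in G85R, a log2 fold change of 0.11 (SE 0.10, limma adjusted p = 0.798). Both G85R values lay just above the higher wild-type value. Its RPKM of 1 read was large, with 592 estimated reads in wild-type replicate 1 against 4394 for Slc25a33 at a similar RPKM. The longest coding transcripts of these 2 genes have 1685 bases for Slc25a39 and 1887 for Slc25a33. In wild-type replicate 1, Slc25a38 and Slc25a27 also had few reads for their RPKM. Slc25a38 (1791 bases) had 452 at 22.9, against 1386 at 28.4 for Slc25a17 (1667 bases). Slc25a27 (2687 bases) had 201 at 6.96, against 263 at 6.20 for Slc25a30 (1706 bases). The RPKM of Slc25a39, Slc25a38 and Slc25a27 are therefore uncertain as levels, and the cause was not tested. Slc25a28 (246696), mitoferrin 2, which brings iron to most tissues' mitochondria, had 27.1 and 22.5 in wild-type against 24.3 and 24.9 in G85R, and both G85R values lay between the wild-type ones, with a log2 fold change of -0.01 (SE 0.13, limma adjusted p = 0.993). Slc25a37 (67712), mitoferrin 1, which is needed for heme in red cell precursors, had 3.86 and 4.34 in wild-type against 4.66 and 4.27 in G85R. Its genotypes overlapped, with a log2 fold change of 0.12 (SE 0.15, limma adjusted p = 0.856), while the red blood cell markers had higher sums in G85R, as given above. Their part in Slc25a37 was not tested. Mitoferrin 2 exceeded mitoferrin 1 by 7.03 and 5.17 times in wild-type and by 5.21 and 5.84 times in G85R (exact permutation test, two-sided, p = 1, adjusted p = 1).

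The carriers of fatty acids and amino acids comprised 7 members, 5 of them tested, 4 with a higher and 1 with a lower mean in G85R, with log2 fold changes from -0.05 to 0.19. These were Slc25a38, the glycine carrier of heme synthesis, with a mean of 25.4 in wild-type and 28.8 in G85R, Slc25a29, a carrier of basic amino acids, with 18.0 and 18.6, Slc25a44, linked to branched-chain amino acids, with 13.5 and 14.2, Slc25a20, which exchanges carnitine and acylcarnitine, with 12.5 and 13.5, and Slc25a15, the ornithine carrier, with 5.46 and 5.27. The genotypes did not overlap for 3 of the 5, beside 41.2% of all tested genes, and none was called. Slc25a2, the second ornithine carrier, and Slc25a45 stayed under an RPKM of 1 in every library. Of the remaining 4 members, Slc25a46 had a mean of 32.0 in wild-type and 33.0 in G85R with a log2 fold change of 0.05 (SE 0.11, limma adjusted p = 0.940), while Slc25a35, Slc25a34 and Slc25a43 stayed under 1.

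The 10 members with a mean under 1 were not tested, and none had more than 78 estimated reads in a library. Of these, 4 were listed at 0 in at least 1 library, Slc25a43, Ucp1, Slc25a31 and Slc25a21. The genotypes did not overlap for 2 of the 10, Slc25a41 lower and Slc25a34 higher in G85R, from 3.12 to 20.7 estimated reads a library. The share of all genes with a mean under 1 that did not overlap was not determined, so that this count has no background beside it. Slc25a43 is the neighbor of Slc25a5 on the X chromosome, at 18448 bases on the same strand, and had at most 0.0869 where Slc25a5 had at least 36.6. The transgene of strain 737 is on chromosome 4, which also carries Slc25a33 and Slc25a34, and its position there is not given in the sources used here.

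Enzymes and channels that work with the carriers, and carrier-like genes of other symbols, were examined as a list of 31 genes. Mtch1, Mtch2, Mcart1 and Mcart6 are such carrier-like genes, outside the family as chosen here. All 31 genes were tested, 14 higher and 17 lower in G85R, and their log2 fold changes had a median of 0.00. With limma 0 of the 31 were called and 3 had an unadjusted p under 0.05, beside 11.0% of all tested genes. The log-linear LRT had a raw p under 0.05 for 4, Mtch1, Got1, Acly and Ckb, beside 1.29% of all 27189 genes. A BHP under 0.05 was reached by 2 of these, Mtch1 and Ckb, beside 0.228%. All 31 had a mean RPKM of at least 1, as did 42.4% of the 27189 genes. The LRT takes rounded RPKM, so that genes near 0 cannot reach a low p. These shares are therefore not those of genes at a like level. Mtch1, a carrier-like protein of the outer membrane, had 354 and 337 in wild-type against 451 and 392 in G85R, a log2 fold change of 0.28 (SE 0.10, limma adjusted p = 0.395), and a BHP of 0.0465. Brp44l, the smaller subunit of the mitochondrial pyruvate carrier, which is no member of the Slc25 family, had 5.35 and 5.43 in wild-type against 6.57 and 7.51 in G85R, a log2 fold change of 0.38 (SE 0.13, limma adjusted p = 0.378). Ccdc109a, the pore of the mitochondrial calcium uniporter, had 26.1 and 25.6 in wild-type against 21.4 and 22.2 in G85R, a log2 fold change of -0.25 (SE 0.10, limma adjusted p = 0.446). In each of these 3 genes, picked by their unadjusted p, the genotypes did not overlap. In all, they did not overlap for 13 of the 31 genes, beside 41.2% of all tested genes. Of the 13, 6 were higher and 7 lower in G85R, where the shares of all tested genes were 17.3% and 23.9%. Ckb, the cytosolic creatine kinase, which uses ATP exported by the ADP/ATP carriers, had 393 and 398 in wild-type against 226 and 388 in G85R. It was low in G85R replicate 1 alone, the library that stood apart in glial RNA. Its BHP was 0.00154, while its log2 fold change was -0.42 (SE 0.23, limma adjusted p = 0.574). Got1, the cytosolic aspartate aminotransferase of the malate-aspartate shuttle, had 285 and 283 in wild-type against 248 and 251 in G85R, a log2 fold change of -0.18 (SE 0.09, limma adjusted p = 0.514). Its direction was opposite to that of Slc25a12, and neither was called.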

How the data were processed

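Total RNA of laser-captured motor neuron cell bodies from each mouse was made into a polyA library. The authors mapped single-end reads of 75 bases with Bowtie 0.12.3 to mm9 and splice junctions of UCSC Known Genes and quantified each UCSC gene cluster with Cufflinks. The deposited values are RPKM, and the same RPKM after 1 read was added to every gene. Depth limits low values, and estimated reads summed to 21560318 to 25186594 a library.

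Members and lists were chosen with earlier results of these data known. Genotypes, 2 libraries against 2, were fitted with limma 3.58.1 in R 4.3.3 (eBayes, trend = TRUE) to log2(RPKM + 0.1) where the mean RPKM reached 1, with Benjamini-Hochberg adjustment over 11530 genes. The log-linear LRT took the rounded RPKM after that addition as Poisson, over 27189 genes. The fit was tested on simulated data. Ratios of 4 paralog pairs had exact permutation tests. Values in each library are given for the 10 highest members, the uncoupling branch, the pairs, members with an unadjusted p under 0.05, and the largest changes. The values of 1 member are not reported here, though it is within counts. Positions are by symbol on NCBIM37, where all 45 were found. Python 3.11.15, numpy 2.4.6, pandas 2.3.3, scipy 1.17.1, Biopython 1.88 and matplotlib 3.10.9 were used. Alternatives were other pseudocounts, filters, scalings, robust eBayes, a replicate block and leaving out libraries.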

Additional observations from a re-analysis of the deposited data

How the results depend on the processing

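No carrier was called by limma under other pseudocounts (1 and 0.01), filters (0.1, 5 or no minimum RPKM), scalings or robust eBayes, or by the log-linear LRT. With replicate number as a block 2 were called, among them Slc25a10 (adjusted p of 0.0446 from limma), where 527 genes (4.57%) were called. The labels do not say what replicates of one number share; their deviations correlated at 0.22 across genes. Calls over all genes, 74 in the fit reported, numbered 17 with a minimum of 5, 112 without a minimum and 40 after quantile normalization. Leaving out 1 library, so that a lone library is assumed to vary like the others, called 0 to 1 carriers (Slc25a30 without wild-type replicate 1, adjusted p = 0.0237), 0 to 1 partner genes (Ckb without G85R replicate 2) and 78 to 188 genes (188 without G85R replicate 2). The median of the carriers was 0.027 after rescaling by the median ratio and -0.039 to 0.00030 with 1 library left out. The log2 difference of the family sum, 0.00, was 0.022 after that rescaling and -0.040 after quantile normalization. With 1 library left out the log2 ratio of Slc25a4 to Slc25a5 differed by -0.20 to 0.14, that of Slc25a22 to Slc25a18 by -0.53 to 0.20 and that of Slc25a28 to Slc25a37 by -0.35 to 0.092. After quantile normalization the log2 fold change turned to -0.046 for Slc25a4, -0.035 for Slc25a3, 0.011 for Slc25a28 and 0.0068 for Slc25a27, and that of Slc25a28 to 0.018 after rescaling by the median ratio. Leaving out a library gave -0.032 to 0.073 for Slc25a4, -0.012 to 0.020 for Slc25a3, -0.25 to 0.062 for Slc25a1, -0.21 to 0.029 for Slc25a33, -0.14 to 0.24 for Slc25a5, -0.14 to 0.13 for Slc25a28, -0.056 to 0.69 for Slc25a18 and -0.32 to 0.40 for Ucp2. With no change of direction it gave -0.34 to -0.030 for Slc25a14, -0.15 to -0.016 for Slc25a11, 0.024 to 0.19 for Slc25a39 and 0.038 to 0.20 for Slc25a37. The cause of these differences was not tested.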
